A study of Saccharomyces cerevisiae with 6 samples.

Results

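The yeast *S. cerevisiae* stores glucose as trehalose, a disaccharide, and as glycogen, a branched polymer. Here, 10 genes that make, break down or regulate these stores were described, of the 7445 features in the count table. They were chosen by name, with earlier results of these data known. They are *TPS1*, *TPS2*, *TPS3* and *TSL1* of the trehalose synthase complex, the neutral trehalase genes *NTH1* and *NTH2*, the glycogen synthase genes *GSY1* and *GSY2*, the glycogen phosphorylase gene *GPH1*, and *GAC1*, which encodes a subunit that directs a phosphatase to glycogen synthase. All 10 were found in the table, and all 10 passed edgeR's filter on low counts. RNA-Seq was carried out on 6 exponentially growing cultures of strain PDW2798 (W303-1A background, *RIO1-AID::KanMX4*, *PADH1-OsTIR1-9myc::URA3*), grown at 25 °C in YPDA, a rich medium with glucose. Of these, 3 received auxin, at 500 µM over 1 h, and 3 received a mock. In both groups, the protein kinase Rio1 carries an auxin-inducible degron, and the ubiquitin ligase subunit OsTIR1, which recognises the degron when auxin is present, is made from the *ADH1* promoter. The groups thus differ in the addition of auxin, and auxin itself and the loss of Rio1 cannot be told apart, since a strain without the degron was not analysed here. A protocol field in the labels mentions auxin for all 6 cultures, so the groups were taken from the treatment field, and the study's methods describe a lowered auxin dose in the later part of the hour.

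Each culture had between 110119744 and 125303818 counts. Values are given as CPM, counts per 1000000 of a culture's total after scaling with edgeR's TMM factors. Features were tested with the quasi-likelihood test of edgeR, 6397 in all, and a gene is said to have risen or fallen where its Benjamini-Hochberg adjusted p was no higher than 0.05. SE stands for the standard error of a log2 fold change. Since 77.0% of all tested features passed this threshold, a call says little by itself, and the size of a change is given with every call. In bulk RNA, fewer cells with a transcript and less transcript per cell cannot be told apart. *RIO1* mRNA had 40.9, 39.4 and 42.7 CPM in the auxin-treated cultures, against 19.8, 21.9 and 22.8 CPM in the mock-treated cultures. The degron removes the protein and not the mRNA, so these values do not check which cultures received auxin.

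Trehalose is made from UDP-glucose and glucose 6-phosphate. Tps1 forms trehalose 6-phosphate, Tps2 removes the phosphate, and Tps3 and Tsl1 are large regulatory subunits of the complex. Neutral trehalase splits trehalose back into glucose. Glycogen synthase extends glycogen chains from UDP-glucose and is switched off by phosphorylation, while glycogen phosphorylase releases glucose 1-phosphate from the chain ends. In budding yeast both stores are known to be low during rapid growth on glucose and to build up as nutrients run out or under stress, and protein kinase A, which is active in glucose, opposes their accumulation. Many of the genes are known targets of the stress transcription factors Msn2 and Msn4, which bind the stress response element.

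The DNA upstream of the 10 genes was searched for the core of this element, AGGGG, on both strands, and for AGGGAT, the core of the post-diauxic shift element, which Gis1 binds. No stretch of DNA matches both at the same place on the same strand, and AGGGG may match inside longer runs of G. From 250 bases before to 50 bases after the start codon, 5 of the 10 genes held AGGGG (50.0%), as did 21.6% of all 6001 protein-coding genes. In the 500 bases before the start codon, a window added after the data were seen, 8 of the 10 held it (80.0%), against 34.1% of 6000 genes. AGGGAT was found for 1 of the 10 genes in the shorter window (10.0%, against 9.3% of all genes) and for 3 in the longer one (30.0%, against 15.4%). In the shorter window *TPS1*, *TPS3* and *TSL1* held 3 copies of AGGGG each, and *NTH1* and *GSY2* 1 each. *TPS2*, *NTH2*, *GSY1*, *GPH1* and *GAC1* held none there. *TPS1* held 6 copies of AGGGG in the longer window, *TSL1* 5, *TPS2* 4 and *NTH1* 3. *TPS3*, *GSY1*, *GSY2* and *GPH1* held 2 each, and neither *NTH2* nor *GAC1* held any. A match is a description of the sequence and does not show that a factor binds there.

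**Figure D1:**
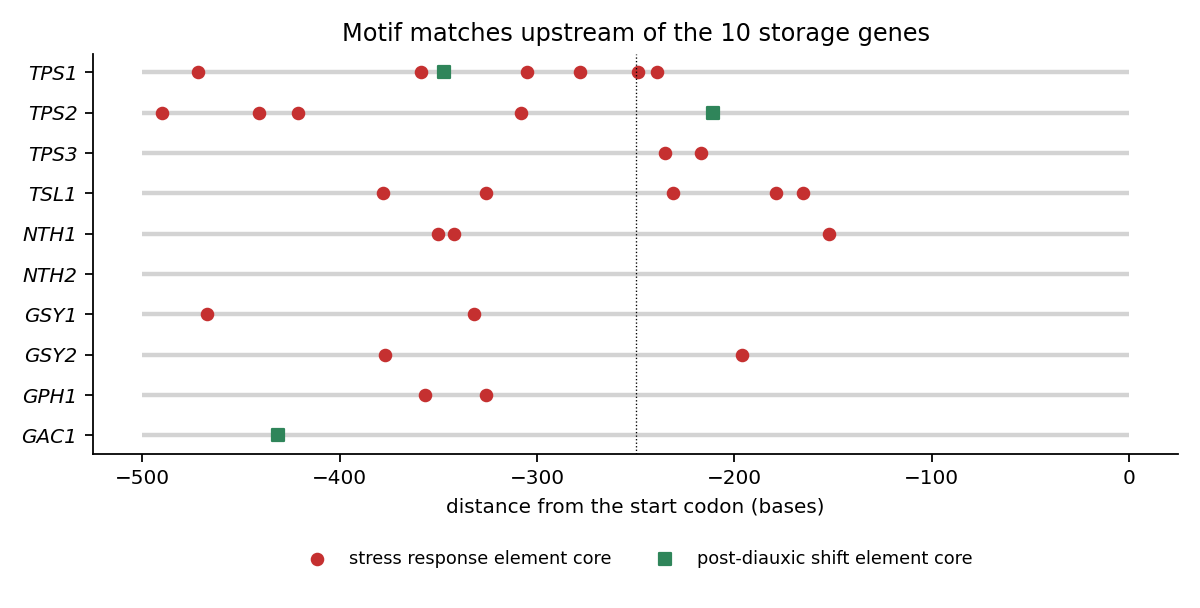
Matches to the core of the stress response element (red circles) and of the post-diauxic shift element (green squares) in the 500 bases before the start codon of each storage gene. The x axis gives the distance from the start codon in bases, the dotted line marks 250 bases, and NTH2 has no match to either.

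Matches are shown for the genes of the trehalose and glycogen pathways on which the results below turn. They are the AGGGG match closest to the start codon in *TPS2*, *TSL1*, *NTH1* and *GSY2*, and 1 of the matches in *GPH1*, whose mRNA differed most between the groups. The matches of *TPS2* and *GPH1* lie outside the shorter window. Each is printed with 12 bases on either side, 5′ to 3′ on the strand of its gene (assembly R64, RefSeq), and the capitals mark the match, which reads CCCCT where it lies on the other strand.
TPS2 at 308 bases before the start codon, chrIV:593573-593601: gggtctgattatAGGGGttagttacgctc
TSL1 at 165 bases before the start codon, chrXIII:70447-70475: ggggtagaaccaAGGGGctagcacactca
NTH1 at 152 bases before the start codon, chrIV:452611-452639: ctagaaattttcCCCCTatcgttttccgt
GSY2 at 196 bases before the start codon, chrXII:660508-660536: gaacgcaattcaCCCCTttctttcttatg
GPH1 at 357 bases before the start codon, chrXVI:860937-860965: aggaaataagtaAGGGGtggataattttc

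*GAC1* held no AGGGG in either window, and its only match was AGGGAT, shown because *GAC1* was, after *GPH1*, the storage gene whose level differed most.
GAC1 at 431 bases before the start codon, chrXV:670655-670684: atttgttatataAGGGATtgctatttcagg

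All 10 storage genes fell upon treatment with auxin. Each passed the adjusted p, and in each the highest auxin-treated culture lay below the lowest mock-treated culture. Of all tested features, 38.5% passed the adjusted p with a lower level in the auxin-treated cultures, and 39.3% were lower without overlap between the groups. The log2 fold changes, auxin over mock, ranged from -1.27 for *GPH1* to -0.29 for *GSY2*, with a median of -0.60, against 0.00 over all tested features. *GPH1* and *GAC1* also fell by more than 2-fold, that is, past a log2 fold change of -1, as did 2.55% of all tested features. The summed level of the 10 genes was 621 ± 3.56 CPM in the auxin-treated and 910.4 ± 11.8 CPM in the mock-treated cultures (SD, n = 3 each), a ratio of 0.682. Scaling by total counts alone moved the median of all tested features up by 0.25. With it all 10 genes were still lower and 9 still passed the adjusted p, and *GSY2*, at -0.04 (edgeR adjusted p = 0.27), did not. Of all 6397 tested features, 4131 rose and 1072 fell with that scaling. The median of the 10 log2 fold changes was then -0.35, with *TPS1* at -0.08, *TPS3* at -0.19, *NTH1* at -0.27, *NTH2* at -0.30, *GSY1* at -0.40, *TSL1* at -0.44, *TPS2* at -0.65 and *GPH1* at -1.02.

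**Figure D2:**
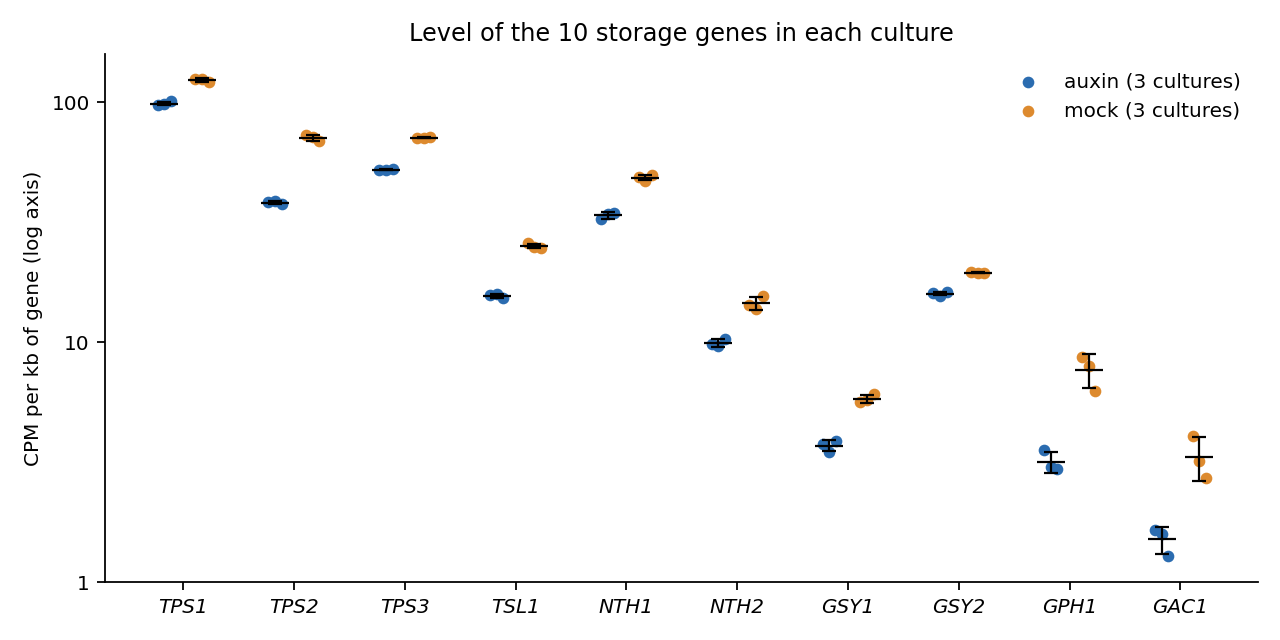
Level of each storage gene in CPM per kb of gene (y axis, logarithmic) in the 3 auxin-treated (blue) and the 3 mock-treated cultures (orange). Points are cultures, and the black line and bar give the mean ± SD. No gene has overlapping groups, and the points of GPH1 and GAC1 spread most.

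All 4 genes of the trehalose synthase complex fell, *TPS1* with the smallest fold change of them and *TPS2* with the largest. *TPS1* (YBR126C, chromosome II from 488905 to 490392), which encodes the synthase itself, had 145, 146 and 150.0 CPM in the auxin-treated cultures, against 187, 186 and 181 CPM in the mock-treated cultures. The groups were far apart relative to their spread, but the fold change was among the smallest of the 10, at -0.33 on the log2 scale (SE 0.02, edgeR adjusted p = 1.3e-06). *TPS2* (YDR074W, chromosome IV from 593893 to 596583), which encodes the phosphatase, had 103, 104 and 102 CPM in the auxin-treated cultures, against 196, 194 and 186 CPM in the mock-treated cultures. All 3 auxin-treated cultures lay close together and far below the mock-treated ones, and the log2 fold change was -0.90 (SE 0.03, edgeR adjusted p = 3.6e-09).

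The regulatory subunits also fell. *TPS3* (YMR261C, chromosome XIII from 790205 to 793369) had 166, 165 and 167 CPM in the auxin-treated cultures, against 225, 224 and 226 CPM in the mock-treated cultures. It was the steadiest of the 10 genes between replicate cultures of the same treatment, with a coefficient of variation of 0.542% in the auxin-treated and 0.386% in the mock-treated cultures, and its log2 fold change was -0.44 (SE 0.02, edgeR adjusted p = 5.3e-08). *TSL1* (YML100W, chromosome XIII from 70624 to 73920), the paralog of *TPS3*, had 51.8, 52.2 and 50.2 CPM in the auxin-treated cultures, against 85.2, 82.2 and 81.6 CPM in the mock-treated cultures. Its log2 fold change was -0.69 (SE 0.03, edgeR adjusted p = 2.0e-08). The 4 genes together had 467 ± 1.44 CPM in the auxin-treated and 685 ± 9.44 CPM in the mock-treated cultures (SD, n = 3 each).

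*TPS1* and *TPS2* were also set against each other within cultures. Counts of *TPS1* divided by those of *TPS2* came to 1.41, 1.40 and 1.48 in the auxin-treated cultures, against 0.954, 0.962 and 0.974 in the mock-treated cultures. This ratio is taken within a culture and does not depend on the scaling between cultures. It was picked after the values were seen and is given with no test. In the mock-treated cultures *TPS2* thus had slightly more counts than *TPS1*, and in the auxin-treated cultures fewer. Per kb of gene, *TPS1* was the higher of the pair in both groups, with ratios of 2.59 in the auxin-treated and 1.74 in the mock-treated cultures.

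The genes for the neutral trehalases fell alongside those for trehalose synthesis. *NTH1* (YDR001C, chromosome IV from 450220 to 452475), which encodes the main neutral trehalase, had 73.4, 77.5 and 78.2 CPM in the auxin-treated cultures, against 110.1, 106 and 112 CPM in the mock-treated cultures. The groups did not overlap, and the log2 fold change was -0.52 (SE 0.03, edgeR adjusted p = 2.9e-07). *NTH2* (YBR001C, chromosome II from 238941 to 241283) encodes a close relative of Nth1 and had 23.0, 22.5 and 24.2 CPM in the auxin-treated cultures, against 33.5, 32.2 and 36.4 CPM in the mock-treated cultures. Its log2 fold change was -0.55 (SE 0.05, edgeR adjusted p = 4.8e-06). Both genes lie beside a centromere, *NTH1* 399 bp from that of chromosome IV and *NTH2* 618 bp from that of chromosome II, whereas the nearest of the other 8 genes, *GSY1*, lies 25638 bp away. The RefSeq annotation places no other gene over any of the 10, and each is coded by 1 exon. Overlaps in the annotation behind the counts were not checked.

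Both glycogen synthase genes fell. *GSY1* (YFR015C, chromosome VI from 174265 to 176391) had 7.98, 7.41 and 8.21 CPM in the auxin-treated cultures, against 12.0, 12.2 and 12.9 CPM in the mock-treated cultures. Its log2 fold change was -0.65 (SE 0.06, edgeR adjusted p = 3.4e-06). *GSY2* (YLR258W, chromosome XII from 660716 to 662833), the isoform known to account for most of the activity as cells approach stationary phase, had 33.9, 33.1 and 34.2 CPM in the auxin-treated cultures, against 41.4, 41.0 and 41.3 CPM in the mock-treated cultures. The auxin-treated cultures lay below the mock-treated ones by several times the spread within a group, but this was the smallest change among the 10 genes, at -0.29 (SE 0.03, edgeR adjusted p = 7.8e-06).

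The gene for glycogen phosphorylase showed the largest change of the 10. *GPH1* (YPR160W, chromosome XVI from 861306 to 864014) had 9.60, 8.18 and 8.03 CPM in the auxin-treated cultures, against 23.5, 21.6 and 17.0 CPM in the mock-treated cultures. In counts, these were 1263, 1030 and 1035 in the auxin-treated cultures, against 2539, 2444 and 1732 in the mock-treated cultures. The level in auxin-treated cultures was 0.415 times that in mock-treated cultures, a log2 fold change of -1.27 (SE 0.11, edgeR adjusted p = 4.9e-06). *GAC1* (YOR178C, chromosome XV from 667860 to 670241) encodes a subunit that brings the type 1 phosphatase Glc7 to glycogen synthase, which is active when dephosphorylated. It had 3.92, 3.78 and 3.06 CPM in the auxin-treated cultures, against 9.70, 7.59 and 6.45 CPM in the mock-treated cultures. Its log2 fold change was -1.14 (SE 0.15, edgeR adjusted p = 6.8e-05). Against a log2 fold change of 1 rather than no change, edgeR's glmTreat called neither gene, and without mock replicate 1 *GAC1* no longer passed 2-fold, at -0.98. Scaling by total counts alone put it at -0.90.

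*GPH1* and *GAC1* were also the most variable between replicate cultures. The coefficient of variation of *GPH1* was 10.1% in the auxin-treated and 16.2% in the mock-treated cultures, and that of *GAC1* was 12.9% and 20.8% in the same groups. The other 8 genes stayed between 0.386% and 6.45%. Mock replicate 1 was the highest mock-treated culture for both genes and mock replicate 3 the lowest. Among the auxin-treated cultures, replicate 1 was likewise the highest and replicate 3 the lowest for both genes. The same order held in both groups for the stress gene *HSP12*, named after its values were seen. It had 6.15, 4.72 and 3.93 CPM in the auxin-treated cultures, against 9.69, 7.59 and 4.30 CPM in the mock-treated cultures. Over the 13 stress genes described below, the median deviation from the group mean was 0.11 in mock replicate 1, -0.01 in mock replicate 2 and -0.10 in mock replicate 3 on the log2 scale. Over the 10 storage genes it was 0.01, -0.01 and -0.01 in the same cultures. Over all tested features it was 0.00 in each, where the scaling and the use of deviations from group means hold it. The part of the difference between mock replicates in the fall of *GPH1* and *GAC1* was not tested. Both genes fell without mock replicate 1 as well as without mock replicate 3. Leaving out each culture in turn, the log2 fold change was between -1.40 and -1.18 for *GPH1* and between -1.28 and -0.98 for *GAC1*.

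To compare levels between genes, CPM were divided by the length of each gene. *TPS1* was the most abundant, with 98.8 ± 1.76 CPM per kb in the auxin-treated and 124 ± 2.13 CPM per kb in the mock-treated cultures (SD, n = 3 each). *GAC1* was the least abundant, with 1.51 ± 0.195 CPM per kb in the auxin-treated and 3.32 ± 0.692 CPM per kb in the mock-treated cultures (SD, n = 3 each). In the auxin-treated cultures the order of levels from high to low was *TPS1*, *TPS3*, *TPS2*, *NTH1*, *GSY2*, *TSL1*, *NTH2*, *GSY1*, *GPH1* and *GAC1*. Neighbours whose cultures overlapped were *GSY2* and *TSL1*, at 15.9 and 15.6 CPM per kb, and *GSY1* and *GPH1*, at 3.70 and 3.18. In the mock-treated cultures the order was *TPS1*, *TPS2*, *TPS3*, *NTH1*, *TSL1*, *GSY2*, *NTH2*, *GPH1*, *GSY1* and *GAC1*, in which *TPS2* and *TPS3*, at 71.2 and 71.2 CPM per kb, overlapped. *TPS2* and *TPS3* thus stood level in the mock-treated cultures, while in the auxin-treated cultures *TPS2* had 38.2 and *TPS3* 52.5 CPM per kb with no overlap.

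The 10 genes include 3 pairs of paralogs, and each pair was compared within cultures, where the scaling cancels out. The coding DNA of *GSY1* and *GSY2* was identical at 73.2% of 2113 aligned bases, with a longest shared run of 20 bases. For *NTH1* and *NTH2* the values were 72.3% of 2245 bases and a run of 33, and for *TPS3* and *TSL1* 67.2% of 3080 bases and a run of 15. These runs are shorter than the 100-nt reads.

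Counts of *GSY2* divided by those of *GSY1* were 4.26, 4.47 and 4.16 in the auxin-treated cultures, against 3.45, 3.37 and 3.20 in the mock-treated cultures. The ratio was higher in every auxin-treated culture than in any mock-treated one, with a difference of 0.36 in the log2 ratio. Counts of *TSL1* divided by those of *TPS3* were 0.312, 0.316 and 0.301 in the auxin-treated cultures, against 0.378, 0.366 and 0.361 in the mock-treated cultures. This ratio was lower in every auxin-treated culture, with a difference of -0.25 in the log2 ratio. In an exact permutation test (two-sided), either ratio gave p = 0.1, the smallest that 3 cultures against 3 allow, or an adjusted p of 0.15 over the 3 ratios. Counts of *NTH1* divided by those of *NTH2* were 3.20, 3.44 and 3.23 in the auxin-treated cultures, against 3.29, 3.30 and 3.07 in the mock-treated cultures. Here the groups overlapped, the difference in the log2 ratio was 0.03, and the exact permutation test gave p = 0.6 (two-sided). *NTH1* and *NTH2* were therefore not shown to fall by different amounts.

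**Figure D3:**
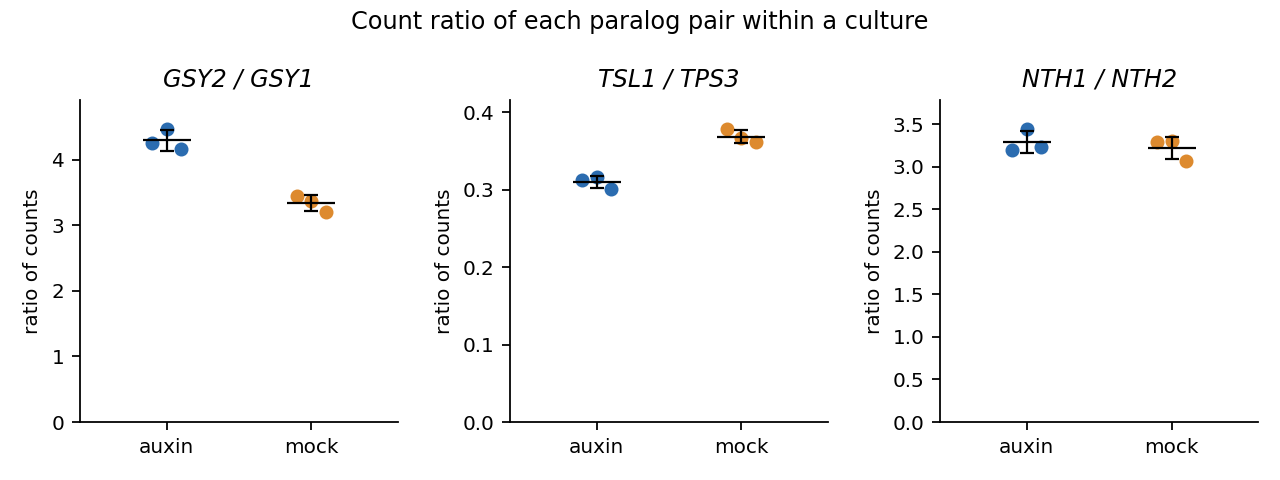
Ratio of the counts of paralogs within each culture, for GSY2 over GSY1, TSL1 over TPS3 and NTH1 over NTH2 (y axes, from 0), in auxin-treated (blue, left) and mock-treated cultures (orange, right). Points are cultures, and the black line and bar give the mean ± SD. Groups are apart in the left and middle panels and overlap in the right one.

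The enzymes around the 10 genes mostly fell as well, except that the debranching enzyme rose. Of 9 further enzymes of the pathways, 2 rose and 7 fell, so that all 9 passed the adjusted p (background 77.0%). The median log2 fold change was -0.41. *GDB1* (YPR184W), whose product removes the branch points that Gph1 cannot pass, had 167, 167 and 166 CPM in the auxin-treated cultures, against 79.9, 74.8 and 74.7 CPM in the mock-treated cultures. It rose by 1.13 (SE 0.03, edgeR adjusted p = 2.3e-09) on the log2 scale, and the groups were far apart. *SGA1* (YIL099W), a glucoamylase known from sporulating cells, was the other gene that rose, at 0.42, with 3.71 CPM in the auxin-treated and 2.77 CPM in the mock-treated cultures.

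*GLC3* (YEL011W), which encodes the branching enzyme, had the lowest fold change of the 9, with 9.19, 7.41 and 7.77 CPM in the auxin-treated cultures, against 23.0, 21.4 and 19.1 CPM in the mock-treated cultures. Its log2 fold change was -1.38 (SE 0.09, edgeR adjusted p = 4.2e-07). *GLG1* and *GLG2*, which encode the proteins that prime glycogen synthesis, fell, at -0.47 and -0.95. *UGP1*, which makes the UDP-glucose used for both stores, fell, at -0.70, with 163 ± 0.0429 CPM in the auxin-treated and 265 ± 2.08 CPM in the mock-treated cultures (SD, n = 3 each). The phosphoglucomutase genes *PGM1* and *PGM2* were at -0.11 and -0.41, and *ATH1*, which encodes the acid trehalase, was at -0.17. All passed the adjusted p, but *PGM1* and *ATH1* turned to 0.14 and 0.08 with scaling by total counts alone. There, 3 of the 9 rose, 5 fell and *ATH1* did not pass the adjusted p (0.2 from edgeR's test). Over all 6397 tested features, 4131 rose and 1072 fell with that scaling. Among the enzymes that take glycogen apart, *GDB1* thus rose and *GPH1* fell. Counts of *GDB1* divided by those of *GPH1*, a ratio picked after the values were seen and given with no test, were 17.4, 20.4 and 20.7 in the auxin-treated cultures, against 3.39, 3.46 and 4.39 in the mock-treated cultures.

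**Figure D4:**
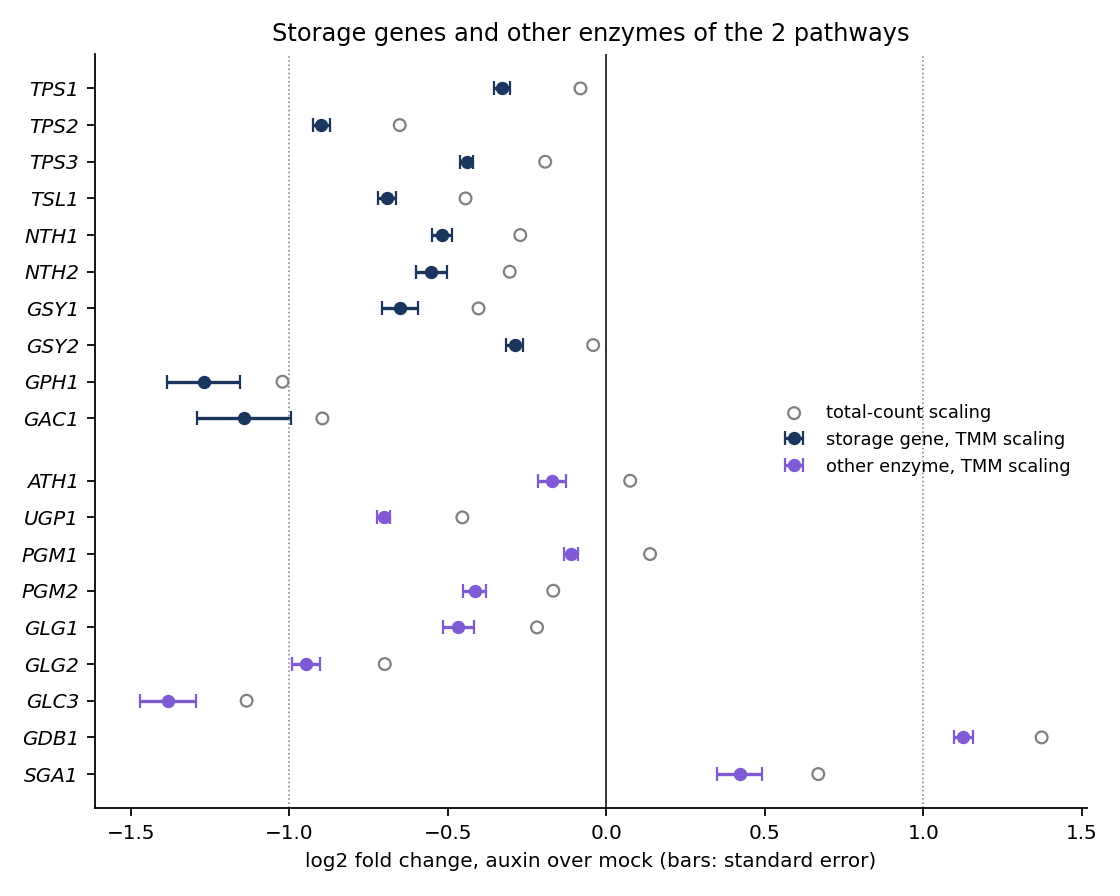
Log2 fold change, auxin over mock (x axis), of the 10 storage genes (dark blue) and 9 other enzymes (purple) with TMM scaling, with bars for the standard error. Open circles give the value with scaling by total counts alone, and dotted lines mark a 2-fold change. Only GDB1 and SGA1 lie above 0 with TMM scaling.

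Regulators of the pathways moved in both directions. Of 27 genes for kinases, phosphatase subunits, cyclins, transcription factors and other regulatory proteins, 5 rose, 17 fell and 5 did not pass the adjusted p, so that 22 passed it (81.5%, background 77.0%). The median log2 fold change was -0.13. This balance depended on the scaling. With total counts alone, 14 rose and 6 fell, and 7 of the 27 turned direction. Of all 6397 tested features, 4131 rose and 1072 fell with that scaling. *MSN2*, at -0.04, *BCY1*, at -0.01, *PCL6*, *PCL8* and *YAK1* stayed lower there without passing the adjusted p. Genes are given below by role.

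Protein kinase A subunit genes moved in different directions. *TPK2* and *TPK3*, which encode catalytic subunits, were at -0.67 and 0.23, and *BCY1*, which encodes the inhibitory subunit, was at -0.26. These 3 genes passed the adjusted p, and none of them turned direction under any scaling. Of the proteins that direct Glc7 to its substrates, *GIP2* (YER054C) had the highest fold change of the regulators, with 9.20, 8.57 and 8.65 CPM in the auxin-treated cultures, against 5.00, 4.58 and 4.86 CPM in the mock-treated cultures. It rose by 0.87 (SE 0.06, edgeR adjusted p = 7.4e-07) on the log2 scale. *PIG2* fell, at -0.71, *PIG1* was at 0.02 and *GLC7* itself at 0.05, neither of which passed the adjusted p (0.64 and 0.071 from edgeR's test). With *GAC1* at -1.14, the genes for these subunits ran from a fall of over 2-fold to a rise. *GLC8*, a regulator of Glc7, was at -0.09 and turned to 0.16 with total counts alone.

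*PHO85*, which encodes a cyclin-dependent kinase that phosphorylates glycogen synthase, fell, at -0.43. Its cyclin genes *PCL6*, *PCL7*, *PCL8* and *PCL10* fell, at -0.34, -0.49, -0.32 and -0.17, of which *PCL10* turned to 0.08 with total counts alone. *BMH1* and *BMH2* encode proteins that bind phosphorylated Nth1 and raise its activity. *BMH1* fell, at -0.41, with 889 ± 24.3 CPM in the auxin-treated and 1182 ± 29.6 CPM in the mock-treated cultures (SD, n = 3 each). *BMH2* was at 0.01, with overlapping groups and an adjusted p of 0.64 from edgeR's test. *IGD1*, which encodes an inhibitor of Gdb1, was at -0.02 (edgeR adjusted p = 0.84), and turned to 0.23 with total counts alone. *DCS1* was at -0.11 and turned to 0.14 with it, and its paralog *DCS2* rose, at 0.45.

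The transcription factor genes *MSN2* and *MSN4* moved in opposite directions with TMM scaling, whereas with total counts alone *MSN2*, at -0.04, did not pass the adjusted p. *MSN2* fell, at -0.28, with 174 ± 5.41 CPM in the auxin-treated and 211 ± 6.05 CPM in the mock-treated cultures (SD, n = 3 each). *MSN4* rose, at 0.23, with 122 ± 3.56 CPM in the auxin-treated and 104 ± 7.08 CPM in the mock-treated cultures (SD, n = 3 each). *GIS1* was at -0.09 and turned to 0.16 with total counts alone. Among the kinases of nutrient signalling, *YAK1* fell, at -0.31 and *PSK2* rose, at 0.11. *PSK1* was at -0.22 and *RIM15* at -0.13, and these turned to 0.02 and 0.12 with total counts alone. *SNF1*, whose kinase favours glycogen storage, was at 0.04 and did not pass the adjusted p (0.09 from edgeR's test).

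Since many storage genes are known Msn2 and Msn4 targets, 13 other stress genes of this kind were examined. Of these, 3 rose, 7 fell and 3 did not pass the adjusted p, so that 10 passed it (76.9%, background 77.0%). AGGGG stood between 250 bases before and 50 bases after the start codon in 11 of the 13. The median log2 fold change was -0.37, against -0.60 for the 10 storage genes. With total counts alone 5 rose and 5 fell, against 4131 and 1072 of all 6397 tested features. The lowest values were those of *HXK1* (YFR053C) and *GLK1* (YCL040W), which encode kinases that trap glucose as glucose 6-phosphate. *HXK1* had 33.3, 28.9 and 29.0 CPM in the auxin-treated cultures, against 119.9, 103 and 101 CPM in the mock-treated cultures, a log2 fold change of -1.83 (SE 0.07, edgeR adjusted p = 2.0e-08). *GLK1* had 63.4, 61.7 and 61.8 CPM in the auxin-treated cultures, against 231, 221 and 202 CPM in the mock-treated cultures, a log2 fold change of -1.81 (SE 0.04, edgeR adjusted p = 1.6e-09). These cultures did not overlap, and both changes exceeded those of any of the 10 storage genes. The highest value was that of *HSP26* (YBR072W), which encodes a small heat shock protein and had 6.62, 7.33 and 6.49 CPM in the auxin-treated cultures, against 4.02, 3.92 and 3.27 CPM in the mock-treated cultures. It rose by 0.86 (SE 0.09, edgeR adjusted p = 1.3e-05) on the log2 scale. The other members of the list ranged from -0.92 to 0.50, and *HSP12* did not pass the adjusted p (0.079 from edgeR's test), with overlapping groups.

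**Figure D5:**
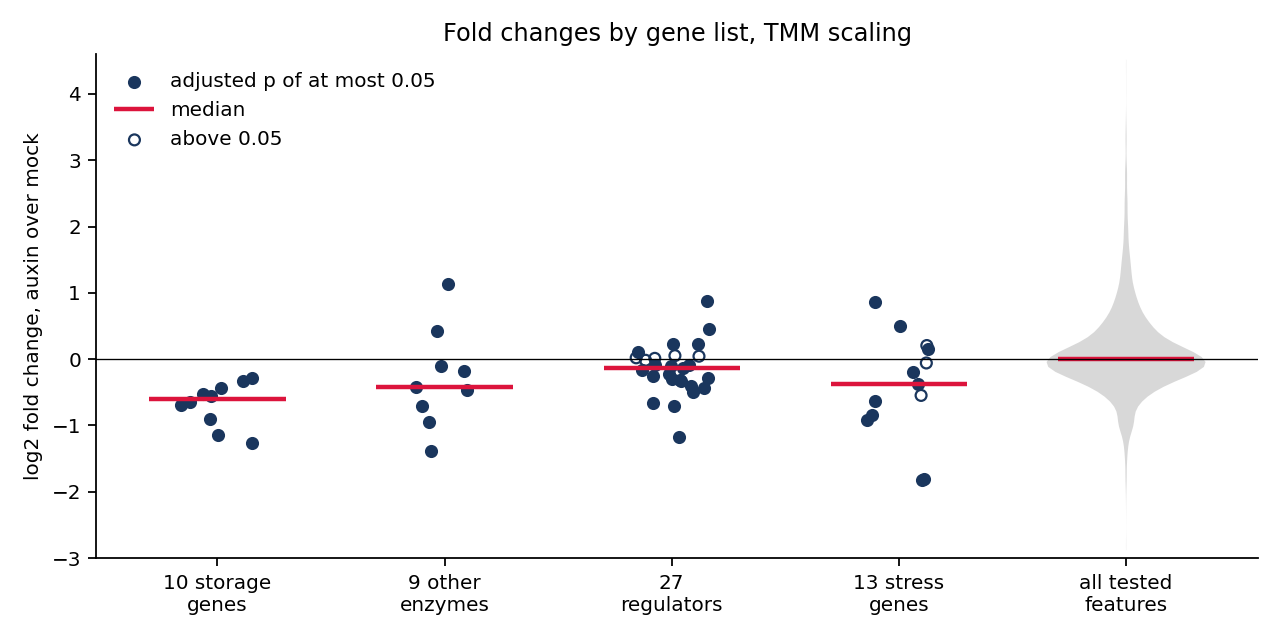
Log2 fold change, auxin over mock (y axis), of each gene in the 4 lists and, as a grey violin, of all 6397 tested features. Filled points passed an adjusted p of 0.05, open points did not, and red lines are medians, at -0.60, -0.41, -0.13, -0.37 and 0.00 from left to right. All 10 storage genes lie below 0.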

How the data were processed

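RNA-Seq was performed on 3 auxin-treated and 3 mock-treated *RIO1-AID* cultures. The authors removed rRNA and made libraries that keep the strand, for paired-end sequencing. They deposited raw counts per gene, obtained with STAR on assembly R64 from reads that had passed Trimmomatic. The adaptors carried molecular identifiers, which the study says were used, but whether duplicate reads were removed before counting is not given in the sources used here, nor is the annotation release. Each culture's deposited counts sum to several times the mapped read pairs that the study states, and the cause was not tested. Columns were assigned to cultures by name, the digit being the repeat and the letter a auxin, and no column was left over.

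From the deposited counts, groups were compared in edgeR 4.0.16 under R 4.3.3, with TMM scaling, the filterByExpr filter and a quasi-likelihood test (glmQLFit, glmQLFTest) of auxin against mock without further terms. P-values were adjusted after Benjamini and Hochberg over 6397 features. The SE is the absolute log2 fold change over the square root of F. Count ratios of paralogs were compared with exact permutation tests. The scripts were tested on simulated data. The alternatives run were scaling by total counts, by RLE or by the upper quartile, DESeq2 1.42.0, no filter, at least 10 counts in every culture, a replicate block, glmTreat, and leaving out each culture in turn. Gene positions and upstream DNA come from RefSeq R64. Gene lengths are coding lengths.

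The 10 genes, the 3 other lists and the motifs were chosen with earlier results of these data known. Named genes were all 10 storage genes, the highest, the lowest and every 2-fold changed gene of each other list, and *RIO1*. The remaining enzymes and regulators are given by role. A regulator that is counted in its list and a sequence match are not reported here by name or by sequence.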

Additional observations from a re-analysis of the deposited data

How the results depend on the processing

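All 10 storage genes were lower under every alternative that gives a log2 fold change, and all 10 passed the adjusted p for any change under RLE and upper-quartile scaling, DESeq2, both other filters, the replicate block and each culture left out, but with total-count scaling *GSY2*, at -0.0412, did not. The number past 2-fold was 2, became 1 with total-count scaling (*GPH1* alone) and was 0 with glmTreat against a log2 fold change of 1. Leaving out each culture in turn gave 1 to 2, the lower value without mock replicate 1. The log2 fold changes then ranged -0.35 to -0.32 for *TPS1*, -0.93 to -0.89 for *TPS2*, -0.45 to -0.44 for *TPS3*, -0.71 to -0.68 for *TSL1*, -0.54 to -0.49 for *NTH1*, -0.59 to -0.51 for *NTH2*, -0.68 to -0.61 for *GSY1*, -0.30 to -0.28 for *GSY2*, -1.40 to -1.18 for *GPH1* and -1.28 to -0.98 for *GAC1*. Over all tested features, 4617 to 4876 passed the adjusted p when a culture was left out. The difference in log2 ratio of *NTH1* over *NTH2* ranged from -0.0023 without mock replicate 3 to 0.052 without auxin replicate 1, with a change of sign also without auxin replicate 2, at -0.00050. That of *GSY2* over *GSY1* ranged from 0.33 to 0.39 and that of *TSL1* over *TPS3* from -0.27 to -0.23. When a culture was left out, alternatives that were chosen after seeing the data for these lists, 9 of the 9 other enzymes, 20 to 22 of the 27 regulators and 9 to 11 of the 13 stress genes were called. With total-count scaling 8, 20 and 10 were, as were 5203 of all 6397 tested features. Same-numbered cultures deviated from their group means with correlations of 0.16, -0.03 and 0.25, so the repeat numbers were not taken as pairs. With the replicate block, 5159 features and all 10 storage genes passed the adjusted p, against 4927 and 10 without it. In the fit with the block *GPH1* was at -1.26 (edgeR adjusted p = 3.7e-10) and *GAC1* at -1.14 (edgeR adjusted p = 1.7e-08). Not every culture correlated best with its own number.

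Over all tested features the median SE was 0.04 on the log2 scale. Pairs of replicates gave a chi-square per degree of freedom of 6.30 to 35.4, beyond counting error, so that no interval from counts alone is given. *GAC1*, with 394 to 1046 counts per culture, had the fewest counts of the 10 genes and the largest SE.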
